A study of Mus musculus with 6 samples.

Results

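The IkB family and A20 form the negative feedback arm of NF-kB signalling, and 7 genes of it were followed here across the 6 arrays of the series. They are Nfkbia, Nfkbib and Nfkbie, which encode the cytoplasmic inhibitors IkB-alpha, IkB-beta and IkB-epsilon, Nfkbid, Nfkbiz and Bcl3, which encode the nuclear IkB proteins IkB-NS, IkB-zeta and BCL-3, and Tnfaip3, which encodes A20. All probe sets whose platform symbol is exactly 1 of these names were taken, which gave 16 of 45037 probe sets and 7 of 18193 genes. The brightest probe set of a gene by its mean over the 6 arrays stands for the gene, and the other 9 serve as a check. All 16 probe sets lay at or above the median signal of every array, so all 7 genes passed the filter on dim probe sets, a signal at or above the array median on at least 2 of the 6 arrays.

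The RNA came from splenic CD8+ T cells described as naive, on a background labelled C57/BL6, and each of the 6 groups was 1 Affymetrix mouse expression array. The groups were Nrdp1-/- cells untreated, Nrdp1-/- cells at 4 h, Nrdp1-/- cells at 8 h, and the same 3 conditions in wild-type (Nrdp1+/+) cells. Nrdp1, the product of the gene Rnf41, is a ubiquitin ligase. Stimulation was with immobilized anti-CD3 at 5 µg/ml plus soluble anti-CD28 at 1 µg/ml, per the treatment protocol, while the label of each stimulated array names anti-CD28 alone. The age of the mice, the number that gave each RNA, the deleted exons, the cells in which the gene was deleted and any pooling are not given in the sources used here. Each group was 1 array, so p-values measure no spread of replicates. They rest on departures from the fitted terms for time and genotype, with a variance drawn partly from other genes. Those departures may be technical.

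NF-kB dimers wait in the cytoplasm of a resting T cell bound to IkB proteins. T cell receptor and CD28 signals act through BCL10 and MALT1 on the IKK kinase, IkB is phosphorylated and degraded, and the freed dimers enter the nucleus. The transcripts they induce include those of their own inhibitors: IkB-alpha is made anew and carries NF-kB back out of the nucleus, and A20, a ubiquitin-editing enzyme, dampens the signal above IKK. The nuclear IkB proteins bind DNA-bound p50 or p52 dimers and can raise or lower transcription of particular targets. In mouse T cells IkB-NS is known for its part in Il2 induction and in Foxp3 expression.

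Promoter sequences are shown because all 7 genes moved together, and they let a reader see which of them hold the site that NF-kB itself binds. RefSeq sequences of GRCm38.p6, from 250 bases before to 50 bases after an annotated start site, were matched by symbol for 6 of the 7 genes, with 9 start sites in all, and Nfkbiz was not among them. The NF-kB consensus was searched on both strands, and a position that matched on both was counted once. At least 1 promoter of 5 of these 6 genes held a match, and the consensus was found in 9.55% of the 27025 genes and in 8.46% of the 32851 promoters of this length in the table. In the sequences below, given 5′ to 3′ on the strand of the gene, capitals mark the matches and the first base of the transcript is position 251 of 300.
Nfkbid, second of 3 start sites, chr7:30422156-30422455, plus strand: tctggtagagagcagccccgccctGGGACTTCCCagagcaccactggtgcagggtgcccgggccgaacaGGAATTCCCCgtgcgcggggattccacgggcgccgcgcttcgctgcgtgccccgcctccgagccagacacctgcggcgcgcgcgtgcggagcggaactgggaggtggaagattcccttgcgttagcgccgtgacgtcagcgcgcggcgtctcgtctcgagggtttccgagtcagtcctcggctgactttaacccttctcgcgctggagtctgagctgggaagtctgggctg
Bcl3, chr7:19822706-19823005, minus strand: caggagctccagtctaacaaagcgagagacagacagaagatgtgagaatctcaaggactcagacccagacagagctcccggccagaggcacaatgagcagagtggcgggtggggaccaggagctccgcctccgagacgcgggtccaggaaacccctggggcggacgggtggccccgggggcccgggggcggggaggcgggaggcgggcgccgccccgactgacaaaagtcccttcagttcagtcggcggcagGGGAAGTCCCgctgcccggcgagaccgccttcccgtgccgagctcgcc
Tnfaip3, outer of 2 start sites, chr10:19015361-19015660, minus strand: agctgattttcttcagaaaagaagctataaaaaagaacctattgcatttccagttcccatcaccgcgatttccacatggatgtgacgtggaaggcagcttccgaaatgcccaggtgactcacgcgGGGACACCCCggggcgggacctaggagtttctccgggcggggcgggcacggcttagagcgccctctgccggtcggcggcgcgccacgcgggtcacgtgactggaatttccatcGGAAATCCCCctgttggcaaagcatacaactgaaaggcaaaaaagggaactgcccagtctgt
Nfkbia, chr12:55492598-55492897, minus strand: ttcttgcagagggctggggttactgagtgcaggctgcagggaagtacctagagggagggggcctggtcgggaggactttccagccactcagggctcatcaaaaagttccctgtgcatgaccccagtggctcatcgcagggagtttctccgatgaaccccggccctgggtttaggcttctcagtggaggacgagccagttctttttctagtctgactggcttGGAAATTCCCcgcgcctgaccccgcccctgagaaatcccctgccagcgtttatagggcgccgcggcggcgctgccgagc
Nfkbib, chr7:28766595-28766894, minus strand: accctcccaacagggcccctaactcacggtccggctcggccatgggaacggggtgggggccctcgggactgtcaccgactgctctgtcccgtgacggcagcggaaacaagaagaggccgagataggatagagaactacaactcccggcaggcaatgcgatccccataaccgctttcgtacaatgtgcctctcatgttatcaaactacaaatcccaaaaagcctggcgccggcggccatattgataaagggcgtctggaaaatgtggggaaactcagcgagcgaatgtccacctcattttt

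The second Nfkbid promoter held the consensus at 2 positions, GGGACTTCCC from -226 to -217 relative to the start site and, on the opposite strand, GGGGAATTCC from -181 to -172. Bcl3 held it at 1 position just inside the transcript (GGGAAGTCCC, 3 to 12), and Tnfaip3 at 2 positions, of which GGGGATTTCC on the opposite strand ended 3 bases before the start (-12 to -3). The Nfkbia match was GGGAATTTCC on the opposite strand, from -29 to -20, and the Nfkbie promoter (chr17:45555450-45555749, plus strand) held GGGGGATTCC from -106 to -97. Of all promoters of this length, 1.22% held 2 or more positions. No match was found in the Nfkbib window, in the other 2 Nfkbid windows or in the inner Tnfaip3 window, which says only that these letters are not there. A match is a description of sequence, and no binding was measured.

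All 7 genes rose after 4 h of stimulation, by 0.63 to 2.42 on the log2 scale, and all 7 were still raised at 8 h, by 0.44 to 1.60. Nfkbid rose most, followed by Bcl3, and by main probe set the cytoplasmic inhibitors Nfkbia and Nfkbib rose least. With probe sets averaged, Nfkbib (0.39) and the nuclear Nfkbiz (0.59) rose least at 4 h, and Nfkbia was at 0.84. In limma over all 10838 tested genes, 8.01% were higher and 5.51% lower at 4 h (13.5% in either direction) at an adjusted p under 0.05, and 9.88% were higher and 9.26% lower at 8 h (19.1% in either direction). None of the 7 was lower. All 4 stimulated arrays lay above both untreated arrays for 7 of 7 genes, which was so for 16.7% of the tested genes. The median change was 0.93 for the 7 genes at 4 h, against -0.05 for all tested genes, and 0.61 at 8 h, against -0.07. The 2 time comparisons share the untreated arrays. A fit with 1 array left out has fewer residual degrees of freedom than the full fit, so its calls are no independent check. All 7 were called higher at both times in the full fit. With 1 array left out their changes ran from 0.51 to 2.73 at 4 h and from 0.34 to 1.91 at 8 h. Nfkbia, Nfkbib and Nfkbiz then lost the 8 h call in some fits, each of which also called fewer genes higher among all tested genes. When the variance prior ignored signal intensity, the count of 7 fell at 4 h to 2, Nfkbid and Bcl3, where 83 genes were higher in all. At 8 h it fell to 1, Bcl3, where 103 were. In such bulk samples fewer cells of a type and less RNA per cell cannot be told apart. The summed signal of the CD8+ T cell markers was 65804 to 76345 in Nrdp1-/- and 68611 to 78987 in wild-type arrays and was lowest at 8 h in both, and of 11 tested myeloid markers 5 fell and 1 rose at 8 h. The part of such shifts in the rise of the 7 genes was not tested.

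**Figure D1:**
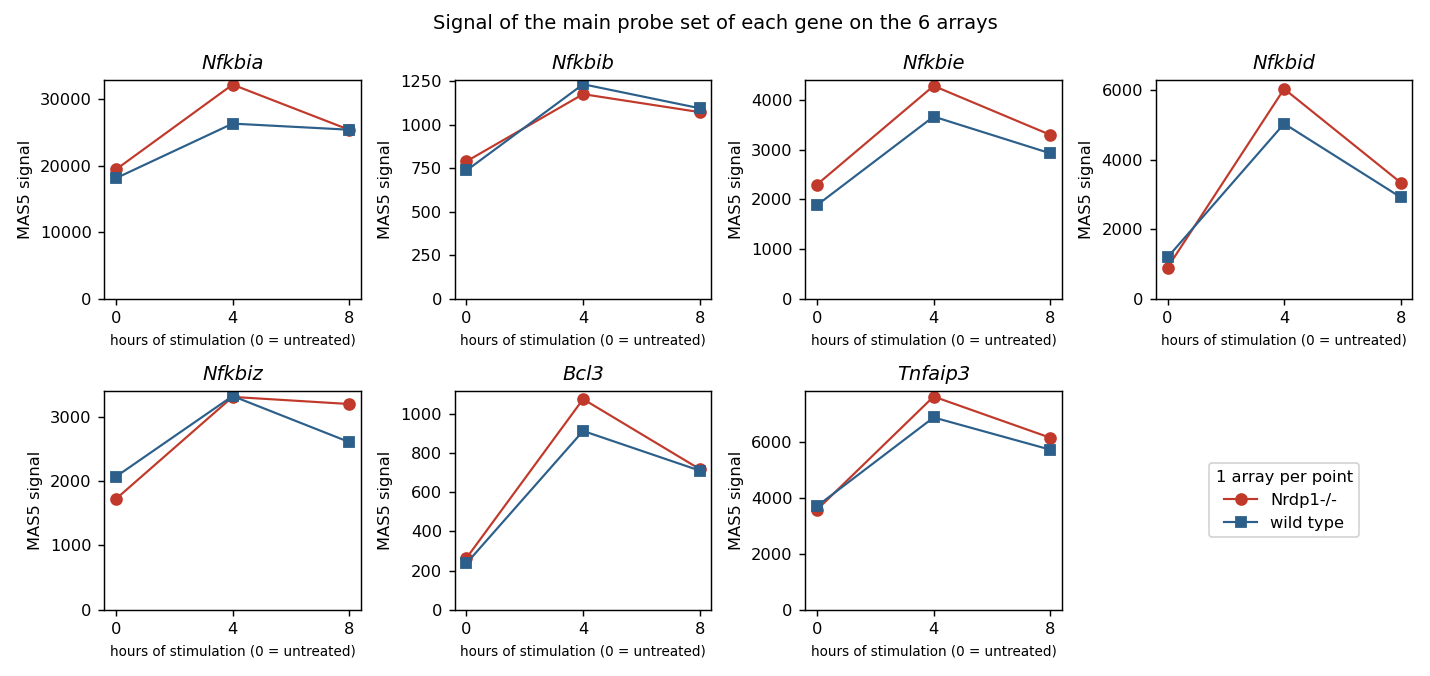
MAS5 signal (linear scale, from 0) of the main probe set of each of the 7 genes against hours of stimulation, with Nrdp1-/- arrays as circles and wild-type arrays as squares, 1 array per point. Every gene was highest at 4 h in both genotypes, and Nfkbid had its 4 h signals at 6035 in Nrdp1-/- and 5034 in wild-type cells.

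Nfkbia encodes IkB-alpha, the inhibitor that is degraded first and resynthesized fastest. Its signal was 19425 untreated, 32189 at 4 h and 25392 at 8 h in Nrdp1-/- cells, and 18113, 26323 and 25405 at the same times in wild-type cells. The 4 stimulated arrays lay above both untreated ones, and the 4 h Nrdp1-/- array stood highest. The rise was 0.63 ± 0.10 at 4 h (SE, 6 arrays, limma, adjusted p = 0.00184) and 0.44 ± 0.10 at 8 h (limma, adjusted p = 0.012). Between the 4 h wild-type and the 8 h arrays the steps in level were 0.05 and 0.00 on the log2 scale, within the 0.10 SD of a single array. At 8 h the call was lost without the untreated Nrdp1-/- array (0.42, limma, adjusted p = 0.17), without the untreated wild-type array (0.46, limma, adjusted p = 0.0914) and without the 8 h wild-type array (0.34, limma, adjusted p = 0.0594).

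Nfkbib encodes IkB-beta, which is degraded and replaced more slowly. Its signal was 789 untreated, 1175 at 4 h and 1072 at 8 h in Nrdp1-/- cells, against 736, 1232 and 1094 in wild-type cells. The stimulated arrays did not overlap the untreated ones, and the order of the 4 stimulated arrays rested on steps smaller than their spread. The rise was 0.66 ± 0.12 at 4 h (limma, adjusted p = 0.00458) and 0.50 ± 0.12 at 8 h (limma, adjusted p = 0.0148). The 8 h call was lost without the 8 h Nrdp1-/- array (0.53, limma, adjusted p = 0.056), the untreated wild-type array (0.43, limma, adjusted p = 0.151) or the 8 h wild-type array (0.48, limma, adjusted p = 0.0537). A second, dim probe set for this gene gave 0.12 ± 0.31 at 4 h and -0.48 ± 0.31 at 8 h.

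Nfkbie encodes IkB-epsilon, an inhibitor itself induced by NF-kB. Its signal was 2301, 4290 and 3303 in Nrdp1-/- cells at 0, 4 and 8 h, and 1885, 3671 and 2930 in wild-type cells. Every step in the order of the 6 arrays exceeded 1 SD of a difference between 2 arrays, which is a low bar and no test. The order was 4 h above 8 h above untreated, with the Nrdp1-/- array above the wild-type one at each time. The rise was 0.93 ± 0.10 at 4 h (limma, adjusted p = 0.000142) and 0.58 ± 0.10 at 8 h (limma, adjusted p = 0.00282).

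Nfkbid, the gene of the nuclear protein IkB-NS, showed the widest range of the 7. In Nrdp1-/- cells its signal was 893 untreated, 6035 at 4 h and 3337 at 8 h, which is 6.76-fold and 3.74-fold the untreated level. In wild-type cells it was 1186, 5034 and 2915, or 4.24-fold and 2.46-fold. The untreated Nrdp1-/- array was thus the lowest of the 6 and the 4 h Nrdp1-/- array the highest. The rise over both genotypes was 2.42 ± 0.15 at 4 h (limma, adjusted p = 1.61e-06) and 1.60 ± 0.15 at 8 h (limma, adjusted p = 4.11e-05), and 0.434% of the tested genes had a larger change at 4 h.

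Nfkbiz encodes IkB-zeta, a nuclear protein needed for secondary induction of inflammatory genes such as Il6 in mouse macrophages. Its signal was 1721, 3308 and 3198 in Nrdp1-/- cells at 0, 4 and 8 h, and 2068, 3322 and 2606 in wild-type cells. The 2 arrays at 4 h and the 8 h Nrdp1-/- array were within 0.05 of their neighbours on the log2 scale. The 8 h wild-type array lay 0.29 below the lowest of them, the 8 h Nrdp1-/- array. The rise was 0.81 ± 0.13 at 4 h (limma, adjusted p = 0.00217) and 0.61 ± 0.13 at 8 h (limma, adjusted p = 0.00876). The 8 h call was lost without the untreated Nrdp1-/- array (0.41, limma, adjusted p = 0.148) and without the 8 h Nrdp1-/- array (0.40, limma, adjusted p = 0.106). At 8 h the change was 0.89 in Nrdp1-/- cells and 0.33 in wild-type cells, each from a single pair of arrays.

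Bcl3 encodes BCL-3, which binds p50 and p52 homodimers in the nucleus. Its signal was 264, 1077 and 719 in Nrdp1-/- cells at 0, 4 and 8 h, and 237, 914 and 711 in wild-type cells. Stimulated arrays were far above untreated ones, and neither the untreated pair nor the 8 h pair differed beyond the spread between 2 arrays. The rise was 1.97 ± 0.14 at 4 h (limma, adjusted p = 4.89e-06) and 1.50 ± 0.14 at 8 h (limma, adjusted p = 4.04e-05). At 4 h it was 4.08-fold in Nrdp1-/- cells and 3.86-fold in wild-type cells.

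Tnfaip3 encodes A20, which in a resting T cell is present and is cleaved by MALT1 after receptor engagement. Its signal was 3576, 7632 and 6156 in Nrdp1-/- cells at 0, 4 and 8 h, and 3706, 6883 and 5728 in wild-type cells. The untreated pair differed by 0.05 on the log2 scale, within the spread of a single array, and all 4 stimulated arrays lay at least 0.63 above it. The rise was 0.99 ± 0.10 at 4 h (limma, adjusted p = 8.11e-05) and 0.71 ± 0.10 at 8 h (limma, adjusted p = 0.000784).

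**Figure D2:**
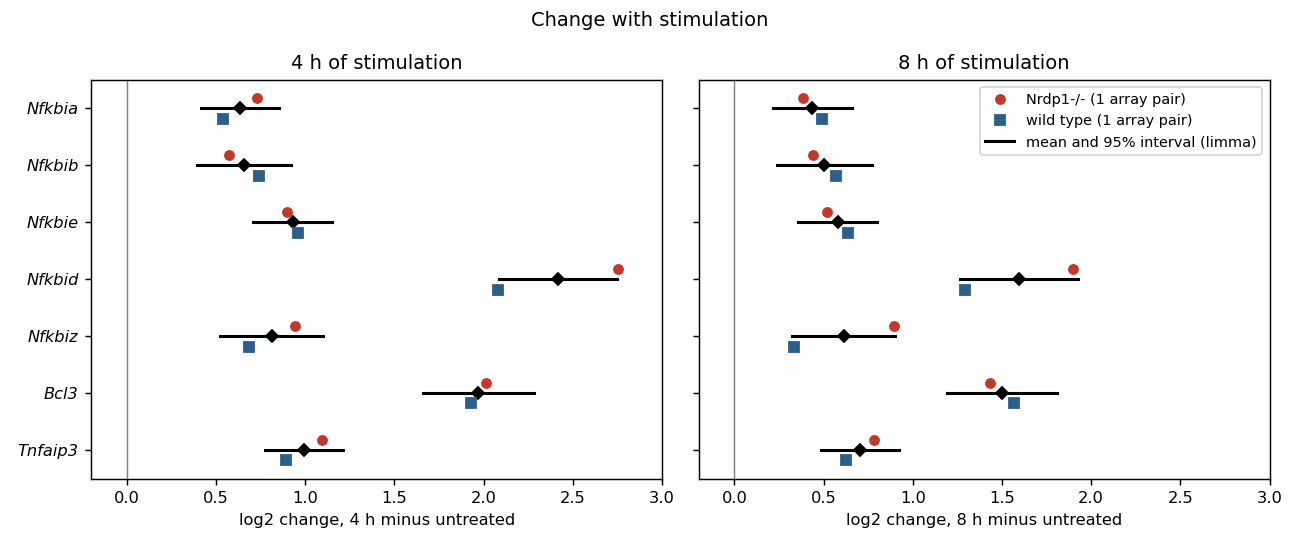
Log2 change of each gene after 4 h (left) and 8 h (right) of stimulation relative to untreated cells. Circles are the Nrdp1-/- pair of arrays, squares the wild-type pair, and diamonds with bars the mean with its 95% interval from limma; at 4 h the intervals of Nfkbid (2.09 to 2.75) and Bcl3 (1.66 to 2.28) lie above those of the other 5 genes, the highest of which ends at 1.21.

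The brightest probe sets were set beside the others. Of the 9 other probe sets, 6 were higher at 4 h in a limma fit over all 23968 probe sets that passed the filter, and all 9 had a positive change. The 5 Nfkbia probe sets gave 0.63, 0.81, 0.77, 1.03 and 0.93 at 4 h in order of falling mean signal, so the main one gave the smallest change. The second Nfkbie probe set gave 1.09 ± 0.14, and those of Nfkbiz 0.65 ± 0.14 and 0.31 ± 0.17, of which the last did not pass (limma, adjusted p = 0.323). The second Tnfaip3 probe set gave 0.80 ± 0.25 (limma, adjusted p = 0.0899). With a gene's probe sets averaged, Nfkbib no longer passed at 4 h (0.39, limma, adjusted p = 0.185) or at 8 h (0.01, limma, adjusted p = 0.975).

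**Figure D3:**
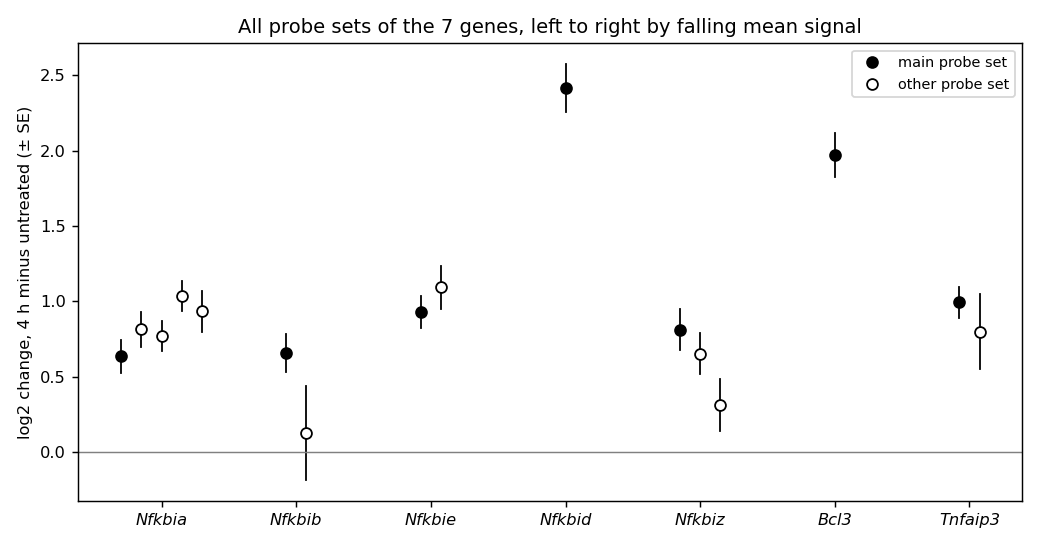
Log2 change at 4 h relative to untreated cells for all 16 probe sets, with the standard error as bars, from the fit over all probe sets. Filled circles are the main probe sets and open circles the others; all 16 lie above 0, from 0.12 for the second Nfkbib probe set to 2.42 for Nfkbid.

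Every one of the 7 genes had its highest signal at 4 h in both genotypes. That order was seen in 9.19% of all tested genes and in 28.1% of the 868 genes called higher at 4 h, and it was not tested as a pattern. All 7 were lower at 8 h than at 4 h in both genotypes, as were 26.1% of the tested genes. The 8 h signal was 78.9% of the 4 h signal for Nfkbia, 91.2% for Nfkbib, 77% for Nfkbie, 55.3% for Nfkbid, 96.7% for Nfkbiz, 66.7% for Bcl3 and 80.7% for Tnfaip3 in Nrdp1-/- cells. In wild-type cells these shares were 96.5%, 88.8%, 79.8%, 57.9%, 78.4%, 77.8% and 83.2% in the same order of genes. Nfkbid thus kept the smallest share in both genotypes. These are shares of the whole 4 h signal, so they also depend on the untreated level. In Nrdp1-/- cells that level was 19425 against 32189 at 4 h for Nfkbia and 893 against 6035 for Nfkbid. Of the 16 probe sets 13 were highest at 4 h in both genotypes, and the exceptions were 1 of Nfkbia and 2 of Nfkbiz.

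None of the 7 genes passed the test of 8 h against 4 h in limma, where 0.0277% of all tested genes were lower and 0.0185% higher (0.0461% in either direction). All 7 estimates were negative, and 4, those of Nfkbid, Nfkbie, Bcl3 and Tnfaip3, had an unadjusted p under 0.05. Of all 10838 tested genes, 531 were lower and 376 higher at that unadjusted level. With the trend left out of the variance prior 0 of all 10838 genes passed, so that fit says nothing of the 7. Nfkbid differed by -0.82 ± 0.15 (limma, adjusted p = 0.0841), Bcl3 by -0.47 ± 0.14 (limma, adjusted p = 0.365), Nfkbie by -0.35 ± 0.10 (limma, adjusted p = 0.331) and Tnfaip3 by -0.29 ± 0.10 (limma, adjusted p = 0.462). With 1 array left out, the Nfkbid difference was -0.82 without the untreated Nrdp1-/- array, -0.95 without the 8 h Nrdp1-/- array and -0.82 without the untreated wild-type array. It was -1.005 without the 4 h wild-type array, -0.69 without the 8 h wild-type array and -0.64 without the 4 h Nrdp1-/- array. Nfkbid was called lower in each of these fits but the one without the 4 h Nrdp1-/- array. Leaving out an untreated array did not change the estimate, so those calls came from the variance of the smaller fit. In the other fits with a call both the estimate and the variance changed. None of these calls is an independent check, and they show no firmer fall.

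The genotypes were compared next, to ask whether loss of Nrdp1 went with another level of the feedback genes. None of the 7 passed the test of Nrdp1-/- against wild type over the 3 times in limma, where 2.47% of the tested genes were higher and 2.57% lower (5.05% in either direction). Nfkbie was the 1 gene with an unadjusted p under 0.05, a level at which 856 of all 10838 tested genes were higher and 935 lower. When the variance prior ignored signal intensity 0 of the 7 passed, with 42 genes higher and 57 lower among all 10838. Nfkbie was higher in Nrdp1-/- cells by 0.29, 0.22 and 0.17 at 0, 4 and 8 h, with a mean of 0.23 ± 0.08 (limma, adjusted p = 0.174). Its second probe set differed by 0.05, 0.30 and 0.10 at the same times, with a mean of 0.15 ± 0.12 (limma, adjusted p = 0.643). By main probe set, Bcl3 was the other gene with a positive difference at all 3 times, at 0.15, 0.24 and 0.02, a pattern seen in 17.4% of the tested genes. Its mean was 0.13 ± 0.12 (limma, adjusted p = 0.642).

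For the main probe sets of the remaining genes the sign of the difference changed between times. Nfkbia differed by 0.10, 0.29 and -0.00 at 0, 4 and 8 h, and its mean of 0.13 ± 0.08 had a 95% interval from -0.05 to 0.31. Every other Nfkbia probe set was higher in Nrdp1-/- cells at each time, the second by 0.29, 0.49 and 0.11, and none was called. Tnfaip3 differed by -0.05, 0.15 and 0.10, with an interval of the mean from -0.11 to 0.25. Nfkbib differed by 0.10, -0.07 and -0.03, with an interval from -0.22 to 0.22. Nfkbid differed by -0.41, 0.26 and 0.19, with an interval from -0.25 to 0.29, and Nfkbiz by -0.26, -0.01 and 0.29, with an interval from -0.23 to 0.24. In untreated cells the other Nfkbiz probe sets differed the other way, by 0.12 and 0.13. At 4 h alone 5 of the 7 genes had a higher signal in Nrdp1-/- cells, as did 51.3% of the tested genes. In the main probe sets the limma intervals for the mean differences of Nfkbia, Tnfaip3, Nfkbib, Nfkbid and Nfkbiz reached less than 0.32 in either direction. Their widths rest on 2 residual and 8.99 prior degrees of freedom, so mostly on the variance of other genes, and set no firm bound. The second probe sets of Nfkbia (0.30 ± 0.09), Nfkbib (0.06 ± 0.25) and Tnfaip3 (-0.11 ± 0.21) allow larger differences. A p that misses the threshold does not show that the genotypes were alike.

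**Figure D4:**
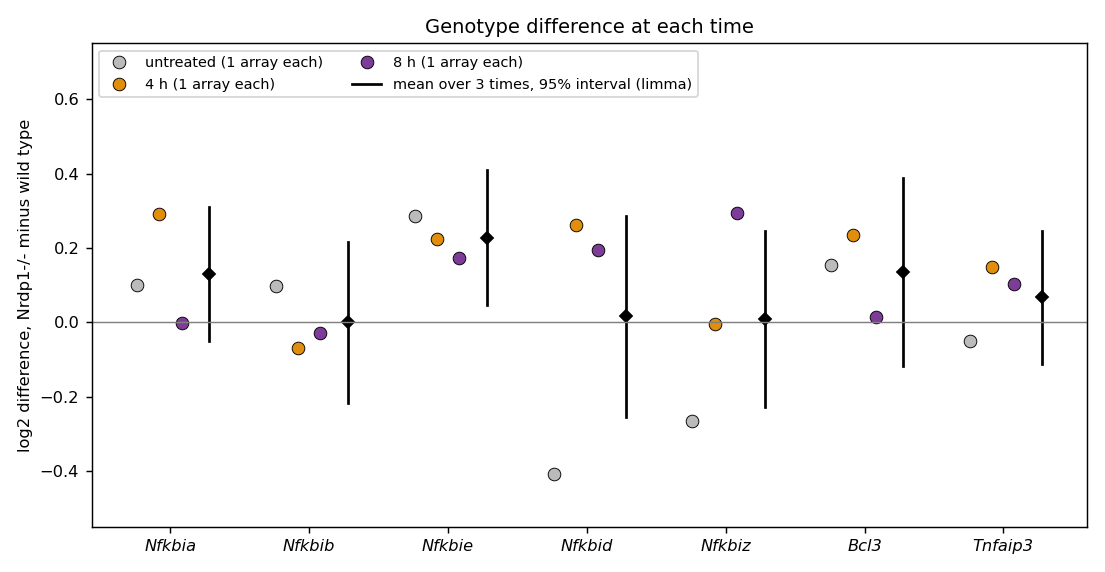
Log2 difference of Nrdp1-/- minus wild type for each gene at each time (circles, 1 array of either genotype per point) and the mean over the 3 times with its 95% interval from limma (diamonds with bars). In the main probe sets shown, Nfkbid and Nfkbiz lie below 0 in untreated cells, at -0.41 and -0.26, and Nfkbie lies above 0 at all 3 times.

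A genotype-by-stimulation term tested whether the response to the antibodies differed with genotype. None of the 7 passed in limma, where 0.0923% of all tested genes had a larger and 0.129% a smaller response in Nrdp1-/- cells (0.221% in either direction). With the trend left out 0 of all 10838 genes passed, so that fit says nothing of the 7. Nfkbid alone had an unadjusted p under 0.05, in a test that called too many genes on simulated data. Of all 10838 tested genes, 182 had a larger and 224 a smaller response at that unadjusted level. The log2 rise at 4 h was larger in Nrdp1-/- cells for 5 of the 7 genes, as it was for 53% of the tested genes. The log2 rise of Nfkbid at 4 h was 2.75 in Nrdp1-/- cells and 2.08 in wild-type cells, and at 8 h it was 1.90 and 1.29. Its difference in response was 0.64 ± 0.24 (limma, adjusted p = 0.638). Nfkbiz had a difference in response of 0.41 ± 0.24 and Tnfaip3 of 0.18 ± 0.23 (limma, adjusted p = 1 for both). The other Nfkbiz probe sets gave 0.03 ± 0.27 and -0.17 ± 0.36. This test had 1 residual degree of freedom and drew its spread from the intensity trend, and each untreated level was 1 array, so the lower untreated Nfkbid signal in Nrdp1-/- cells, 893 against 1186, has no replicate.

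Markers of other cell types differed between the genotypes. Of 9 tested B cell markers 8 were lower in Nrdp1-/- arrays and 1 was higher, with Ms4a1 at -3.16 ± 0.13, and the summed signal of the 11 on the array was 24977 to 34600 in Nrdp1-/- and 32020 to 35717 in wild-type cells, most of it Ighm, the marker that was higher. Of 11 tested myeloid markers 6 were higher in Nrdp1-/- arrays, with a summed signal of 4839 to 13967 in Nrdp1-/- and 2661 to 3222 in wild-type cells, and Lyz1 at 2.19 ± 0.32. Memory-like CD8+ T cells were followed by 9 tested markers, of which 7 were higher in Nrdp1-/- arrays (limma), with a summed signal of 36157 to 38944 in Nrdp1-/- and 25658 to 27871 in wild-type cells. The 7 measured CD8+ T cell markers were above the array median on every array, and none was called between genotypes, with 3 at an unadjusted p under 0.05. Cd4, Foxp3 and Cd40lg lay below the array median on all 6 arrays, and the 4 CD4+ T cell markers summed to 104 to 213 in Nrdp1-/- and 75.6 to 179 in wild-type cells. Colon epithelium was examined because the extraction text of the labels names colon. Of its 8 markers Krt20, Vil1, Muc2 and Slc26a3 lay below the array median on all arrays and 2 lay above it on all arrays. Of 3 tested, Car1 was higher (2.27 ± 0.36) and Epcam lower (-1.06 ± 0.15) in Nrdp1-/- arrays and Lgals4 was at 0.17 ± 0.15, and the sum of the 8 was 795 to 1024 in Nrdp1-/- and 787 to 1147 in wild-type cells. B cells and myeloid cells express NF-kB feedback genes too, and their part in the genotype values above was not tested.

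The targeted gene Rnf41 differed by -0.36 ± 0.12 in its brightest probe set (limma, adjusted p = 0.128), and the 3 dimmer ones did not point one way. They differed by -0.15, 0.46 and -0.32, by -1.66, -1.18 and -0.91 and by -0.11, 0.52 and 0.34 at 0, 4 and 8 h, in order of falling mean signal. Which probe set lies in the deleted part is not given in the sources used here.

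Other genes of the pathway were read beside the 7. Among the Rel and NF-kB subunits 3 of 4 tested rose at 4 h in limma: Nfkb2, whose precursor p100 itself acts as an IkB (1.76 ± 0.15), Relb (1.43 ± 0.11) and Rel (1.03 ± 0.20), while Rela, which encodes p65, was at 0.24 ± 0.11. At 8 h the changes relative to untreated cells were 1.16 for Nfkb2, 0.83 for Relb and 0.77 for Rel, and 0 of the 4 were called between 8 h and 4 h, with 2 at an unadjusted p under 0.05. Of 13 tested activators upstream of IkB none was called at 4 h, with 3 at an unadjusted p under 0.05, among them the paracaspase gene Malt1 (0.40 ± 0.13) and its partner Bcl10 (0.23 ± 0.10). None of 4 tested subunits of the ligase that ubiquitinates IkB was called, with 0 at an unadjusted p under 0.05.

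Of 10 tested ubiquitin editors and A20 partners 1 rose at 4 h, the ISG15 protease gene Usp18 (1.16 ± 0.17), and 1 fell, the deubiquitinase gene Otud7b (-0.86 ± 0.20). The A20-binding Tnip1 (0.12 ± 0.10) and Tax1bp1 (-0.17 ± 0.10), the ligase gene Itch (-0.29 ± 0.11) and the deubiquitinase gene Cyld (0.06 ± 0.10) did not pass. Of 4 regulators of mRNA decay Zc3h12d rose (0.62 ± 0.11), and Zc3h12a, which encodes Regnase-1, was at 0.60 ± 0.19 (limma, adjusted p = 0.0548). Of 9 other restraints 2 rose, Nlrc5 (0.87 ± 0.13) and Nkrf (0.52 ± 0.15), and 2 fell, Nlrc3 (-0.85 ± 0.11) and Nkiras1 (-0.45 ± 0.13).

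Of 12 targets of NF-kB 10 rose and 1 fell at 4 h. The cytokine gene Il2, below the array median on both untreated arrays, was at least 42.4-fold higher. The transcription factor gene Irf4 rose by 3.31 ± 0.14, and Ier3 fell (-0.65 ± 0.15). The chemokine gene Ccl3 and the cytokine gene Tnf rose too, and no size is given because their untreated wild-type signal was below the array median. In Nrdp1-/- cells Ccl3 was at 8351 at 4 h, against 207 untreated, and Tnf at 1919, against 105. Over the 3 times 5 of the 12 were higher in Nrdp1-/- cells in limma, Ccl3 (1.17 ± 0.20), Tnf (1.06 ± 0.16), Ier3 (0.61 ± 0.13), Gadd45b (0.49 ± 0.10) and Icam1 (0.37 ± 0.09), against 0 of the 7 feedback genes. The values of Ccl3 and Tnf include the dim untreated wild-type array. The myeloid markers moved the same way, 6 of 11 being higher with a summed signal of 4839 to 13967 in Nrdp1-/- and 2661 to 3222 in wild-type cells, and their part in the target values was not tested. The median genotype difference was 0.35 for the targets, 0.07 for the 7 genes and -0.01 for all tested genes, and the difference between these lists was not tested. Of the subunits, activators, ligase subunits, decay factors and other restraints 0 were called between genotypes, with 0, 2, 0, 1 and 1 genes at an unadjusted p under 0.05, and of the A20 partners Usp18 was higher (0.59 ± 0.14).

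**Figure D5:**
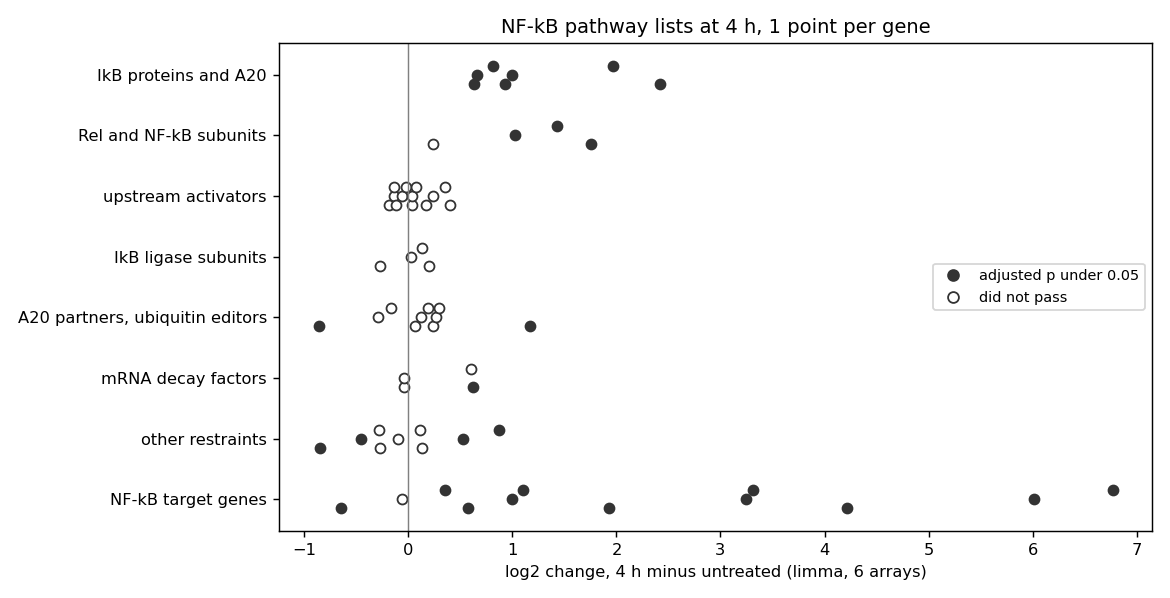
Log2 change at 4 h relative to untreated cells (limma, 6 arrays) for each tested gene of 8 lists, with filled circles for an adjusted p under 0.05 and open circles for genes that did not pass. The 7 IkB and A20 genes lie between 0.63 and 2.42, while the 13 upstream activators lie between -0.19 and 0.40.

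The profiles of the 7 genes were compared with all other tested genes by the root mean square difference of their 6 log2 values, each gene centred on its own mean, with a small value for a close match. Nfkbia came closest to Batf (0.04), Nle1 and Dph2 (both 0.06), and Nfkbib to Lrpprc and Alkbh6 (both 0.04) and Tmem248 (0.06). Nfkbie came closest to Rps6kc1, Gfi1 (both 0.08) and D17H6S56E-5 (0.10). Nfkbiz was nearest to AI463170 (0.06), 9430078K24Rik (0.07) and Slc1a5 (0.08), and Slc1a5 was also nearest to Tnfaip3 (0.07), before Zbtb10 (0.07) and Nbn (0.08). Bcl3 was nearest to Irf1 (0.11), Grwd1 (0.13) and Slamf1 (0.15). Nfkbid had the least close neighbours, Itih5 (0.25), Bcl3 (0.26) and Rasgef1b (0.27). Within the family the closest pairs were Nfkbia with Nfkbib and Nfkbie with Tnfaip3 (both 0.11), and Nfkbiz with Tnfaip3 (0.12). Nfkbid lay 0.60 to 0.76 from every member other than Bcl3.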

How the data were processed

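Expression was measured with 6 biotin-labelled Affymetrix mouse arrays, 1 per genotype and condition, grouped by sample title. The deposited table holds linear intensities from MAS5, named without a version per the submitters' processing notes. After trimming 2% at either end, each array averaged 500.0, as after scaling by 1 factor per array, a step read from the values and not recorded in the labels, and such scaling would hide a shift of most transcripts. The array medians were 61.5 to 68.6. Detection calls were not used. The number of arrays limits the precision.

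Of 45101 probe sets, 64 controls were left out. The platform table gave 1 symbol to 34945 probe sets; 932 had several and 9160 were not listed. Through Entrez identifiers 34741 matched RefSeq, and 0 symbols changed. Values were taken as log2(signal + 4.45), 4.45 being the 10th percentile, which understates changes of dim genes. The brightest probe set stood for a gene, and 10838 of 18193 genes reached the array median on at least 2 arrays. Time and genotype were additive terms in limma 3.58.1 (R 4.3.3; lmFit, eBayes with an intensity trend, Benjamini-Hochberg over all tested genes, threshold 0.05), with 2 residual and 8.99 prior degrees of freedom. A genotype-by-stimulation term left 1 residual degree of freedom and an infinite prior. Differences between 2 single arrays have no test. In the order of the arrays, a step was set against the spread of a difference between 2 arrays, the single-array SD of the fit times the square root of 2. With 1 array per group that SD is no spread of replicates and draws partly on other genes. The bound for Il2 was taken against the array median. Tests were checked on simulated data, where the genotype-by-stimulation test made more false calls than its threshold allows.

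Members and gene lists were chosen with earlier results of these data known. Named were the 7 genes with all probe sets, Rnf41, up to 4 called genes per pathway list, leading markers, and the 3 nearest profiles per gene; uncalled pathway genes, Usp18 and the whole call lists of 5 or fewer were named after their values were seen. Some genes of the lists are not reported here. Alternatives were quantile normalization, median centring, pseudocounts of 1 and 24.3 (30th percentile), no filter or one at the 70th percentile, averaged or other probe sets, no intensity trend, the stimulated arrays alone for genotype, and leaving out each array.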

Additional observations from a re-analysis of the deposited data

Results flagged for a closer look

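No gene of the IkB and A20 family was singled out, and 4 genes of the lists read beside it differed between genotypes in their response to stimulation by the interaction test. The NF-kB target Ccl3 differed by -1.09 ± 0.25 (limma, adjusted p = 0.00811), its Nrdp1-/- minus wild-type difference being 1.90 before stimulation, 0.47 after 4 h and 1.15 after 8 h, with the untreated wild-type signal below the array median. The memory marker Nkg7, a granule protein gene, differed by 0.99 ± 0.23 (limma, adjusted p = 0.011), with 0.11, 1.14 and 1.06 at 0, 4 and 8 h. The lysozyme genes Lyz1 and Lyz2 differed by -1.47 ± 0.25 and -1.66 ± 0.28 (limma, adjusted p = 5.16e-06 for both), with the Nrdp1-/- excess at 3.17 and 3.29 in untreated cells and 0.77 and 0.72 at 8 h. That test had 1 residual degree of freedom and made too many false calls on simulated data, so these p-values are too small. All 4 genes kept their direction in 8 alternatives, but Nkg7, Lyz1 and Lyz2 were called in 4 of them and Ccl3 in 3. None was called after quantile normalization, with median centring, with averaged probe sets or without the intensity trend, and their adjusted p in limma reached 1. Those settings called few genes of any kind, against 10 higher and 14 lower in the main fit. Quantile normalization called 4 higher and 4 lower and median centring 1 higher and 0 lower. Averaged probe sets and the fit without the trend called 0 of all genes, so these losses are not particular to the 4 genes.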

How the results depend on the processing

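Without the intensity trend, 2 of the 7 genes were called higher at 4 h and 1, Bcl3, at 8 h, against 7 at both times with it. Fits with 1 array left out had fewer residual degrees of freedom than the full fit, so their calls are no independent check. Leaving out 1 array at a time gave 7 called at 4 h, 5 to 7 at 8 h and 0 to 1 (Nfkbid) lower at 8 h than at 4 h, and 0 between genotypes in either direction. Of 500 recomputed changes of single genes, 447 kept their direction and side of the threshold, 27 kept direction and lost the call, 5 gained one and 21 changed sign. Only a called change can lose its call, so all 27 were in the comparisons of 4 h and 8 h with untreated cells. There Nfkbib at 8 h held in 9 of 15 alternatives and Nfkbia at 8 h in 13 of 18. All changes of sign but 1 were in comparisons where the gene was not called. That exception was Nfkbib at 8 h, which was -0.48 in its other probe set. Nfkbiz at 8 h against 4 h ran from -0.41 to 0.0156 with 1 array left out. Between genotypes over 3 times the same exercise gave -0.0488 to 0.0346 for Nfkbib, -0.11 to 0.23 for Nfkbid and -0.14 to 0.14 for Nfkbiz. Nfkbib was also at -0.0488 in the stimulated arrays alone, and Tnfaip3 at -0.0215 with its probe sets averaged and at -0.11 in its other probe set. The genotype difference in response turned for Nfkbia to -0.00631 with averaged probe sets and to -0.0260, -0.0124 and -0.0446 in 3 others, for Nfkbie to 0.0284 with averaged probe sets and 0.15 in its other one, for Nfkbiz to -0.17 in its dimmest probe set and for Bcl3 to 0.0155 after quantile normalization. The cause of these changes was not tested. No paired analysis was possible because each group is 1 array with no shared replicate number, and genotype already enters the time comparisons as a block. The second probe sets of Nfkbib and Tnfaip3 were dim, with means of 110 and 157 against array medians of 61.5 to 68.6. The part of background in their values was not tested.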
